A study of Homo sapiens with 24 samples.

Results

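At 12 h, A549 cells in CAF conditioned medium held less mRNA of chemokine and other NF-kB target genes than cells in control medium. Some low-abundance genes had more, such as the homeobox gene GBX1, the repressor gene HES7 and the non-coding RNA gene LINC00263. The chemokine transcript CXCL5 measured 704 RPKM in control medium and 249 RPKM in CAF medium, where RPKM scales the reads of a gene by its model length and the depth of the library, and CXCL1 measured 239 and 86.8 RPKM. GBX1 measured 0.36 RPKM in control and 5.57 RPKM in CAF medium. GBX1, HES7 and LINC00263 reached the 5 RPKM floor only in CAF medium, so they were compared because they were high there. Of the 31 members of a list of glycolysis and hypoxia genes 24 were lower in CAF medium. Over all genes compared about as many were higher as were lower. Genes of mitosis had a median difference above 0 at this time, while genes of DNA replication had a median below 0.

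The comparison sets 1 mRNA library of A549 cells kept for 12 h in CAF conditioned medium against 1 library of A549 cells kept for 12 h in control medium. A549 is a human epithelial cell line established from a lung adenocarcinoma. The labels do not spell out CAF, which in this field usually means cancer-associated fibroblast, and they do not describe the control medium. Polyadenylated RNA was sequenced, and other mRNA libraries of the series, at 3, 6, 24, 48 and 72 h, serve here only as context. Genes entered with at least 5 RPKM in either 12 h library, which 7613 of the 22026 genes in the table had (34.6%). Of these 6525 had 5 RPKM in both libraries, 532 only in the control and 556 only in the CAF medium library.

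Although 2 biological replicates are named in the design text, there is 1 column of values for each medium and time. The difference at 12 h therefore has no replicate check and no test, and every comparison below is between 2 libraries. The smallest steps between values gave 27.48 M reads for the control and 27.25 M reads for the CAF medium library. Differences are given as log2(RPKM + 0.5) in CAF medium minus control. This scale understates the difference of low genes. A difference of 1, a 2-fold difference, is the line used for counts. The 95% interval from counting error, computed from the recovered reads, left out 0 for 158 of the 159 genes past the upper line and for 107 of the 108 past the lower line. It lay wholly past the 2-fold line for 108 and 69 of them. The interval does not cover differences between cultures or library preparations, and in bulk RNA fewer cells that express a gene and less RNA per cell cannot be told apart.

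The 12 h CAF medium library differed more from its neighbours in time than the 12 h control did from its own. Its values had an SD of log2 differences of 0.37 to the 6 h and 0.47 to the 24 h CAF medium library, against 0.23 and 0.28 for the same comparisons in control medium. It held the lowest of the 12 mRNA values for 1728 members (22.7%) and the highest for 981 (12.9%). The 12 h control held the lowest for 633 (8.31%) and the highest for 141 (1.85%). The same figures were not computed for the CAF medium libraries of other times, so whether this is particular to 12 h was not tested. The 12 h contrast rests on the 12 h CAF medium library and cannot be given without it. Values of other times are therefore set beside the main results.

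**Figure D1:**
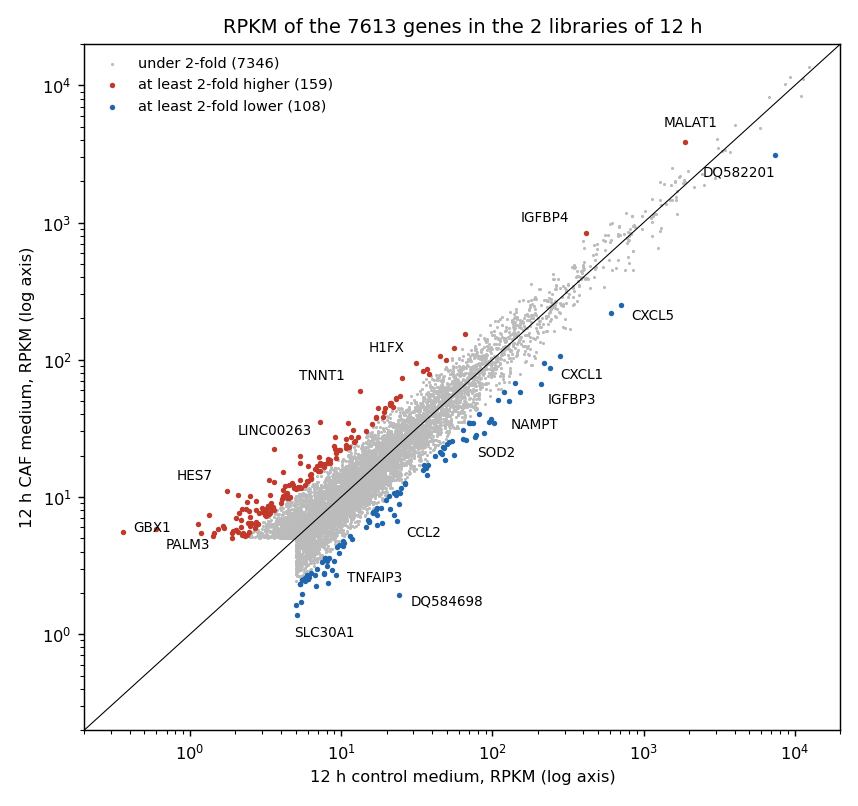
RPKM of the 7613 genes in the 12 h control library (x axis) and the 12 h CAF medium library (y axis), both on log axes; the line marks equal values. The 159 genes at least 2-fold higher in CAF medium (red) lie mostly below 30 RPKM, while the 108 genes at least 2-fold lower (blue) include abundant transcripts such as CXCL5, CXCL1 and IGFBP3.

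Over all members the median difference was -0.01 and the SD was 0.47. The 5th and 95th percentiles were -0.73 and 0.77, and the 25th and 75th were -0.31 and 0.30. About as many members thus lay below 0 as above it, which is the background for the list counts below. In CAF medium 159 genes (2.09%) were at least 2-fold higher and 108 (1.42%) at least 2-fold lower, and 9 and 1 of these passed 4-fold. Of the 159 higher genes 82 reached 5 RPKM only in CAF medium, and of the 108 lower genes 41 only in control medium. Such genes entered through the library in which they were high. The higher genes had a median of 4.73 RPKM in control and 11.9 RPKM in CAF medium, and the lower genes 20.2 and 8.07 RPKM. Just inside the 5 RPKM floor lay UNC13B (5 RPKM in control, 3.75 in CAF medium), and just outside it lay COX15 (4.62 and 4.99). IGFBP4 and STX10 lay just past the upper line, and ENAH just past the lower.

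NF-kB is a family of dimeric transcription factors that inhibitor proteins hold in the cytosol until inflammatory signals such as interleukin 1 or tumour necrosis factor release them. Its targets include chemokines, which attract white blood cells, and inhibitors that shut the pathway off again, such as TNFAIP3 and NFKBIA. In lung epithelium these genes form an early signal to neutrophils and monocytes. The results below begin with the promoter sequences of the targets that were past the lower line, since they show the site the family is known to bind.

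RefSeq promoters (GRCh38.p14) were matched to 6224 of the 7613 members by symbol. The 10-base consensus of NF-kB was searched on both strands in the 250 bases before each start. It occurred in 5.10% of all 27305 promoters, in 5.83% of the members, in 8 of the 117 higher genes with a promoter (6.84%) and in 10 of the 73 lower genes with a promoter (13.7%). Of the 16 NF-kB list members with a promoter 10 held it, and of the 9 past the lower line 7 did. These 7 are among the 10 lower genes that held it. The list was drawn from known targets, so neither its share nor the 13.7% of the lower genes is an independent result. A match is a string of letters and does not show that the factor was bound. The windows of those 7 genes follow 5′ to 3′ on the strand of the gene, with the matches in capitals.
CXCL1 (chr4:73869285-73869354, plus strand): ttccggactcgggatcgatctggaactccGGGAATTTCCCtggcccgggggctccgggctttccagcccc
CXCL2 (chr4:74099233-74099302, minus strand): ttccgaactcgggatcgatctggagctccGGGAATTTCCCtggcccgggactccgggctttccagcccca
CXCL3 (chr4:74038728-74038797, minus strand): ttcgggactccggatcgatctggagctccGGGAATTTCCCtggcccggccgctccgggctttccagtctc
CXCL5 (chr4:73998728-73998797, minus strand): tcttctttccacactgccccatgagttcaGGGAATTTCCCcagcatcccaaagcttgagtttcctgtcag
TNFAIP3 (chr6:137867174-137867243, plus strand): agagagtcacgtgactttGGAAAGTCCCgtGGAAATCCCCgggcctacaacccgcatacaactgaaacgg
NFKBIZ (chr3:101827740-101827806, plus strand): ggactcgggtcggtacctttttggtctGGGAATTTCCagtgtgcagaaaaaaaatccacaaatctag
NFKB1 (chr4:102501280-102501349, plus strand): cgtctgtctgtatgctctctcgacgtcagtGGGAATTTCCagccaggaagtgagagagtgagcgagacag
The 4 CXCL genes carry the same 11 capital letters, 2 overlapping matches read on opposite strands, which begin 77 to 91 bases before the start. CXCL1, CXCL2 and CXCL3 also share most letters around it. They are near-identical copies, so their reads may be split between them.

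Of the 30 genes in the NF-kB and cytokine list 22 were members. None was at least 2-fold higher, 11 were at least 2-fold lower, and 20 had a difference below 0. With differences centred on the median of genes of like length, NFKB1 (-0.88) and NFKBIZ (-0.99) came under the line and 9 stayed past it. The median was -0.92, against -0.01 over all members, and the summed level was 1482 RPKM in control and 681 RPKM in CAF medium. The list had a median of -1.02 at 3 h, -0.53 at 6 h, 0.01 at 24 h and 0.40 at 48 h.

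Among the ligands of this list CCL2 (chromosome 17), which attracts monocytes, measured 23.3 RPKM in control and 6.73 RPKM in CAF medium at 12 h, a difference of -1.72. CXCL1, CXCL2, CXCL3 and CXCL5 (all chromosome 4), which attract neutrophils, had differences of -1.46, -1.53, -1.29 and -1.499. IL8, now named CXCL8, measured 45.1 and 21.4 RPKM (-1.06), and CLCF1, a cytokine that signals through the interleukin 6 receptor chain, 17.2 and 6.29 RPKM (-1.39). In CXCL1, CXCL2, CXCL3, CXCL5 and IL8 the 12 h CAF medium value was the lowest of all 12 libraries. CXCL5 measured 569 to 848 RPKM in the other 5 control libraries and 363 to 657 RPKM in the other 5 CAF medium libraries. These ranges overlap, but they pool the times and do not set each time against its own control. The 12 h CAF medium value lay below both ranges. The CXCL5 difference at 12 h minus the mean of those at 6 and 24 h was -1.09.

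Regulators of the pathway were also past the lower line. TNFAIP3 (chromosome 6), which encodes the ubiquitin-editing inhibitor A20, measured 9.22 RPKM in control and 2.70 RPKM in CAF medium (-1.60). NFKB1 (chromosome 4), the gene of the p50 subunit, measured 5.65 and 2.54 RPKM (-1.02), and NFKBIZ (chromosome 3), an atypical inhibitor and cofactor, 24.98 and 11.69 RPKM (-1.06). SOD2 (chromosome 6), the mitochondrial superoxide dismutase, measured 88.0 and 29.2 RPKM (-1.57). For TNFAIP3, NFKB1, NFKBIZ and SOD2 the 12 h CAF medium value was again the lowest of the 12 libraries. NFKBIA, which encodes the classic inhibitor, differed less (74.1 and 61.5 RPKM, -0.27). NFKB2 (11.4 and 12.1 RPKM) and CEBPD (53.7 and 68.2 RPKM, 0.34), a transcription factor of the acute phase, were the 2 members with a value above 0.

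**Figure D2:**
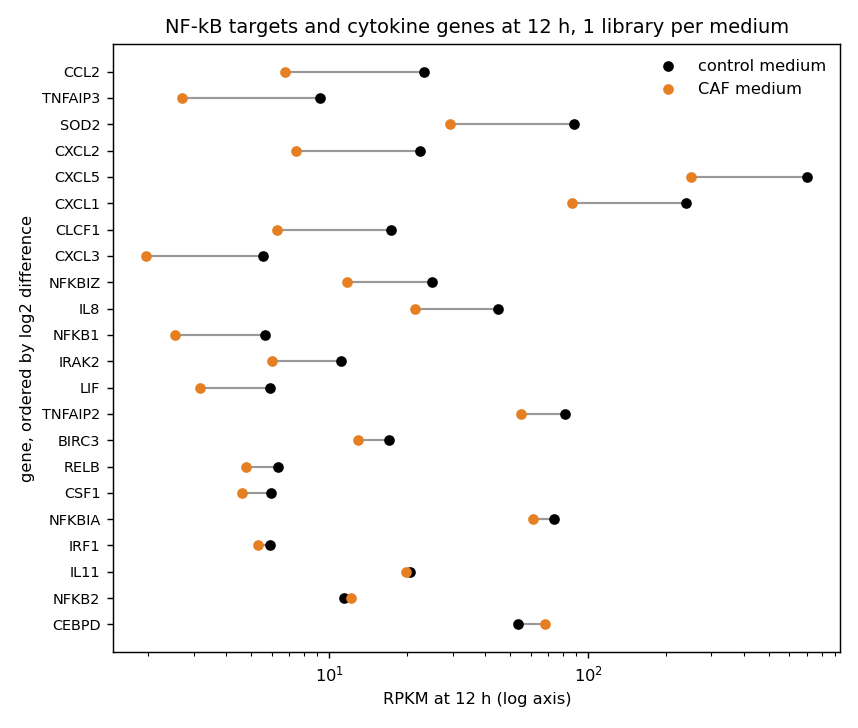
RPKM at 12 h (log axis) of 22 NF-kB targets and cytokines, ordered by difference, in control (black) and CAF medium (orange), 1 library each. In 20 of the 22 genes the CAF medium value lies to the left of the control, from CCL2 (23.3 and 6.73 RPKM) to IL11 (20.6 and 19.8 RPKM).

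Interleukin 6 cytokines signal through the shared receptor IL6ST, the kinase JAK1 and STAT factors, which switch on acute phase genes. The receptor and kinase genes were lower in CAF medium at 12 h. IL6ST (chromosome 5) measured 8.03 RPKM in control and 3.13 RPKM in CAF medium (-1.23), and JAK1 (chromosome 1) 55.5 and 20.1 RPKM (-1.44). The JAK1 difference was 0.30 at 3 h, -0.28 at 6 h, -0.63 at 24 h and 0.14 at 48 h. The STAT3 and acute phase list had 14 members, of which 3 were at least 2-fold lower and none higher, with a median of -0.28.

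The acute phase genes themselves were divided. SAA1 (chromosome 11), serum amyloid A, measured 77.1 RPKM in control and 27.53 RPKM in CAF medium (-1.47), and CP (chromosome 3), the copper carrier ceruloplasmin, 18.5 and 6.46 RPKM (-1.45). At 24 h SAA1 and CP had differences of 0.27 and 0.11. The 3 fibrinogen genes FGA, FGB and FGG (chromosome 4) had values above 0 (0.51, 0.61 and 0.62), with FGG at 34.8 and 53.8 RPKM. PIM1 (chromosome 6), a kinase gene that STAT factors switch on, measured 4.94 and 9.77 RPKM (0.92). Reads of SAA1 may be shared with its near-identical copy SAA2.

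There were 1187 nuclear genes with a model of at least 400 bases and at least 50 RPKM in either library. Of these, 23 were past the lower and 15 past the upper line, against 1.42% and 2.09% of all members. The counts are not read as a trait of abundant genes. IGFBP3 (chromosome 7), which binds insulin-like growth factors outside the cell, had the largest difference of the 23, 208 RPKM in control and 66.3 RPKM in CAF medium (-1.64). NAMPT (chromosome 7), an enzyme of NAD synthesis that cells also secrete, measured 102 and 34.5 RPKM (-1.56). IGFBP3 was lower at 3, 6, 24 and 72 h too (-0.75, -1.27, -1.02 and -0.62), whereas NAMPT differed by at most 0.33 in size at each other time. PLOD2 (chromosome 3), which modifies lysine in collagen, measured 129 and 49.7 RPKM (-1.37). At a lower level TNFSF14 (chromosome 19), a ligand of the tumour necrosis factor family, measured 8.22 and 2.37 RPKM (-1.60).

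Cells short of oxygen stabilise HIF factors, which switch on glycolytic enzymes, the angiogenic factor VEGFA and the HIF hydroxylases. In the glycolysis and hypoxia list 5 of 31 members were at least 2-fold lower and none higher, with a median of -0.34. VEGFA (chromosome 6) measured 37.0 RPKM in control and 14.4 RPKM in CAF medium (-1.34), and ADM (chromosome 11), the vessel-relaxing peptide adrenomedullin, 47.6 and 22.8 RPKM (-1.04). PFKFB3 (chromosome 10), which makes an activator of glycolysis, measured 74.7 and 34.7 RPKM (-1.09), KDM3A, a histone demethylase, 16.9 and 8.04 RPKM (-1.03), and CA12, a carbonic anhydrase, 81.9 and 40.3 RPKM (-1.01). Centred by length, PFKFB3, KDM3A and CA12 came under the line (-0.96, -0.89 and -0.94), which left 2 of the 5. Among the enzymes proper LDHA had -0.74 (756 and 452 RPKM) and PGK1 -0.57 (163 and 110 RPKM), and the glucose transporter SLC2A1 had -0.82 (26.7 and 14.9 RPKM). The list median was 0.09 at 3 h, -0.16 at 6 h and -0.39 at 24 h. EPAS1 (chromosome 2), the gene of HIF2 alpha, was named after its values were seen and measured 35.2 and 17.2 RPKM (-1.01, or -0.88 centred by length).

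Genes that guard against oxidants and handle metals were also mostly lower. In the NRF2 list 26 of 34 members had a difference below 0 (median -0.22, against -0.01 over all members). Of these 34, 3 were past the lower line, as were 1.42% of all members, and none was past the upper. The 3 were SLC7A11 (chromosome 4), the cystine importer, at 6.76 RPKM in control and 2.69 in CAF medium (-1.19), HMOX1 (chromosome 22), which breaks down haem, at 10.2 and 4.36 (-1.15), and GCLM (chromosome 1), a subunit of the enzyme that starts glutathione synthesis, at 9.67 and 4.46 (-1.04). TXNRD1, thioredoxin reductase, measured 114 and 61.5 RPKM (-0.89), and TKT, transketolase of the pentose phosphate pathway, 205 and 326 RPKM (0.67). In the list of iron, zinc and copper handling 12 of 14 members lay below 0 (median -0.36) and 3 were past the lower line, HMOX1 among them. SLC30A1 (chromosome 1), a zinc exporter, measured 5.14 and 1.38 RPKM (-1.58), and TFRC (chromosome 3), the transferrin receptor, 37.4 and 17.0 RPKM (-1.12), or -0.98 centred by length.

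Amino acid transport and polyamine synthesis had some members past the lower line. SLC7A5 (chromosome 16), a carrier of large neutral amino acids, measured 67.4 RPKM in control and 26.1 RPKM in CAF medium (-1.35). ODC1 (chromosome 2), the first enzyme of polyamine synthesis, measured 64.0 and 26.5 RPKM (-1.26). The differences of SLC7A5 and ODC1 were also below -1 at 6, 24 and 48 h. The ATF4 and serine synthesis list as a whole was split, with 12 of 23 members above and 11 below 0. Its median of 0.00 became -0.02 when the libraries were rescaled without the 100 most abundant genes. CBS (chromosome 21), which makes cystathionine, was its 1 member past the upper line (2.72 and 8.08 RPKM, 1.41), and SLC7A5 and SLC7A11 were the 2 past the lower line.

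**Figure D3:**
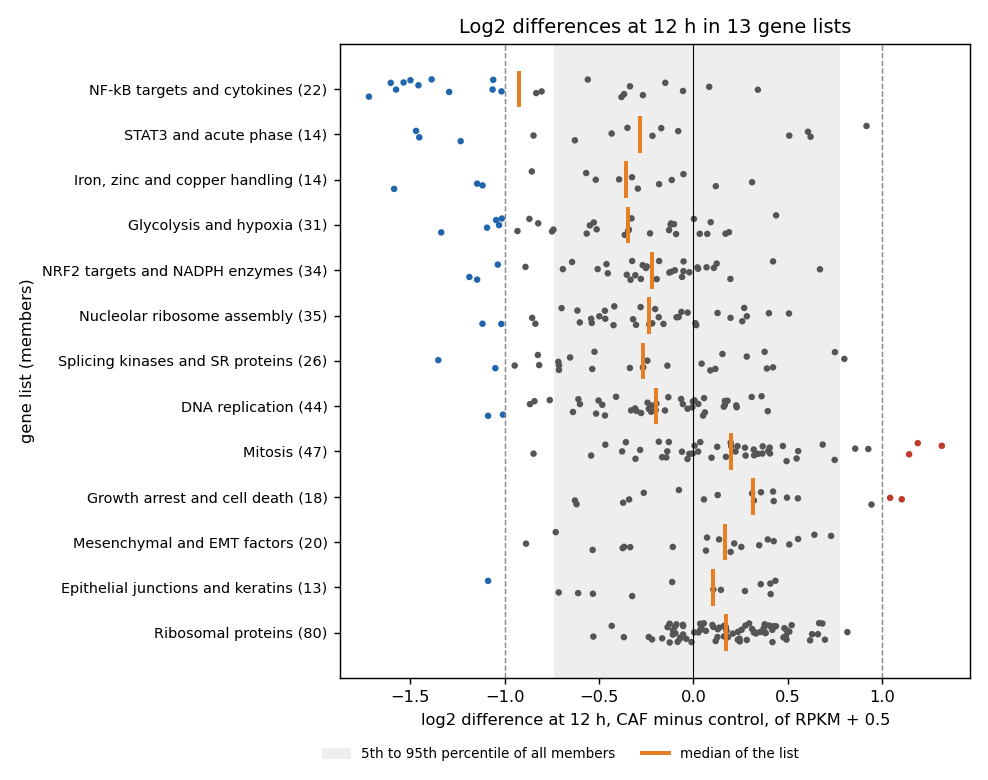
Log2 differences at 12 h of the members of 13 gene lists (dots, 1 per gene; red and blue past the 2-fold lines), with the list median (orange) and the range from the 5th to the 95th percentile of all 7613 members (grey, -0.73 to 0.77). The NF-kB list has the lowest median of the 13 (-0.92), and the lists of mitosis and of growth arrest hold members past the upper line.

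The genes that were higher in CAF medium had lower levels and more varied roles. GBX1 (chromosome 7), a homeobox factor of the nervous system, measured 0.36 RPKM in control and 5.57 RPKM in CAF medium (2.82), and PALM3 (chromosome 19), a member of the paralemmin family, 0.60 and 5.81 RPKM (2.52). LINC00263 (chromosome 10), a long intergenic non-coding RNA, measured 3.58 and 22.4 RPKM (2.49). HES7 (chromosome 17), a repressor of the segmentation clock under Notch control, measured 1.77 and 11.04 RPKM (2.35). GBX1, PALM3, LINC00263 and HES7 reached 5 RPKM only in CAF medium, so they entered through the library in which they were high. For GBX1, PALM3 and HES7 the 12 h CAF medium value was the highest of the 12 libraries, and LINC00263 reached 31.7 RPKM in CAF medium at 48 h.

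Muscle and neural genes were among them. TNNT1 (chromosome 19), slow skeletal troponin T, measured 13.3 RPKM in control and 58.9 RPKM in CAF medium (2.10). Its other control values were 14.6, 12.8, 9.87, 41.99 and 65.3 RPKM at 3, 6, 24, 48 and 72 h, so the 12 h CAF medium value lay below the control of 72 h. PPP1R14A (chromosome 19), an inhibitor of myosin phosphatase, measured 7.21 and 35.4 RPKM (2.22) and CKB (chromosome 14), brain creatine kinase, 4.14 and 15.3 RPKM (1.77). SEMA6B (chromosome 19), a membrane-bound guidance factor, measured 1.13 and 6.37 RPKM (2.08) and SEPT4 (chromosome 17), a septin, 1.33 and 7.37 RPKM (2.10). In the list of muscle and neural genes 3 of 11 members were past the upper line and none past the lower, with a median of 0.45. That list had been drawn up with earlier results of these data in view.

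Other named genes past the upper line ranged widely in level. The linker histone genes H1FX (chromosome 3) and H1F0 (chromosome 22) measured 31.1 RPKM in control and 94.2 RPKM in CAF medium (1.58), and 45.1 and 106 RPKM (1.22). HDAC5 (chromosome 17), a class II histone deacetylase, measured 2.07 and 10.2 RPKM (2.06). HSPA2 (chromosome 14), an HSP70 family chaperone, measured 34.6 and 82.6 RPKM (1.24). MALAT1 (chromosome 11), a nuclear long non-coding RNA, measured 1884 and 3890 RPKM (1.05), the highest level among the genes past the upper line. Its other control values were 1386 to 3217 RPKM and its other CAF medium values 1788 to 4167 RPKM, so the media overlapped over the time course. IGFBP4 (chromosome 17), another binding protein of insulin-like growth factors, measured 416 and 835 RPKM (1.004, or 0.90 centred by length), opposite in direction to IGFBP3.

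Cell cycle genes differed by phase. The DNA replication list had 30 of 44 members below 0 (median -0.20), with MCM10 (10.1 RPKM in control, 4.47 in CAF medium, -1.09), a factor that starts replication, and UHRF1 (19.6 and 9.51, -1.01), which guides maintenance of DNA methylation, past the lower line. Centred by length, both came under the line (-0.95 and -0.93), which left none. RRM2 (40.2 and 21.8, -0.87) and MCM4 (44.9 and 24.8, -0.84) followed. TK1 (19.7 and 26.1, 0.39) and PCNA (122 and 137, 0.17) were above 0. In the mitosis list 31 of 47 members lay above 0 (median 0.20) and 3 were past the upper line. CENPA (chromosome 2), the histone of centromeres, measured 12.0 and 30.6 RPKM (1.32), CDC25C (chromosome 5), the phosphatase that lets cells enter mitosis, 6.72 and 15.9 RPKM (1.19), and PTTG1 (chromosome 5), securin, 55.3 and 123 RPKM (1.14, or 0.98 centred by length). For all 3 this was the highest of the 12 libraries, as it was for 44.7% of all genes past the upper line. The 12 h CAF medium value was the highest of 12 for 16 of the 47 mitosis members (34.0%), against 12.9% of all members. At 24 h CENPA, CDC25C and PTTG1 were lower in CAF medium (-0.44, -0.32 and -0.12), and the list median was -0.68 at 24 h and -1.09 at 48 h.

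The 150 bases before the start of these 3 genes are shown because late cell cycle promoters are known for 2 elements, the CHR and the CCAAT box. Capitals mark TTTGAA, the CHR, and CCAAT, each searched on both strands, so that the reverse strand match of CCAAT reads ATTGG. The 2 elements do not overlap each other in these windows, while 2 of the CCAAT matches of PTTG1 overlap.
CENPA (chr2:26785906-26786055, plus strand): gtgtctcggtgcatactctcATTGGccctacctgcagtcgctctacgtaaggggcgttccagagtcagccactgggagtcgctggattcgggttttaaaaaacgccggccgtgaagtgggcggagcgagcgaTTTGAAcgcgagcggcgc
CDC25C (chr5:138331805-138331954, minus strand): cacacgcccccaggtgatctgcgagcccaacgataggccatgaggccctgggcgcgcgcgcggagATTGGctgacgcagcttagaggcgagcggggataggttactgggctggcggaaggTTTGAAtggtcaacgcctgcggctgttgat
PTTG1 (chr5:160421705-160421854, plus strand): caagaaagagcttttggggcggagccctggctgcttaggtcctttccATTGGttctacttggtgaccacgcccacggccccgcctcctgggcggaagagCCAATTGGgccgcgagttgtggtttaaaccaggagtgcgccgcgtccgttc
CENPA and CDC25C each hold 1 match of either element and PTTG1 3 of CCAAT and 0 of TTTGAA. In the 250 bases before the start TTTGAA occurred in 20 of 40 mitosis members with a promoter (50%) and 1 of 40 DNA replication members (2.5%), against 13.7% of all promoters and 8.64% of the members. CCAAT occurred in 77.5% of the mitosis and 52.5% of the replication promoters, against 32.9% of all promoters and 35.99% of the members. Among genes past a line, TTTGAA occurred in 12 of 117 higher (10.3%) and 7 of 73 lower genes with a promoter (9.59%). CCAAT occurred in 42.7% of these higher and 24.7% of these lower genes. The mitosis list holds genes of a phase whose promoters are known for these elements, so its shares are not an independent result. A link of either element to the 12 h difference was not tested.

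The list of growth arrest and cell death genes had 2 of 18 members past the upper and none past the lower line (median 0.32). BBC3 (chromosome 19), the death factor PUMA, measured 8.39 RPKM in control and 18.6 RPKM in CAF medium (1.10), and FDXR (chromosome 17), a mitochondrial reductase, 14.5 and 30.4 (1.04). DDB2, a DNA repair factor, followed at 0.94 (21.7 and 42.2 RPKM). The list medians at 6 and 24 h were -0.26 and 0.09.

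The series title names epithelial-mesenchymal transition, in which epithelial cells loosen their junctions and take on a fibroblast-like state. None of the 20 members of the mesenchymal list was past a 2-fold line (median 0.17). FN1 (chromosome 2), fibronectin, had the largest difference, 128 RPKM in control and 69.2 RPKM in CAF medium (-0.89), while at 3, 6 and 24 h it had 0.35, 0.42 and 0.49. LOXL2, a matrix cross-linking enzyme, had -0.73, and WNT5A, a Wnt ligand, and SPARC, a matrix protein, had 0.73 and 0.64. CDH2, N-cadherin, measured 103 and 80.0 RPKM (-0.37) and VIM, vimentin, 402 and 461 RPKM (0.20).

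In the epithelial list 1 of 13 members was past the lower line and none past the upper, with a median of 0.11 that became 0.00 under quantile normalization. DSG2 (chromosome 18), a desmosome cadherin, measured 18.4 RPKM in control and 8.38 RPKM in CAF medium (-1.09, or -0.95 centred by length), against 0.16 at 6 h and -0.28 at 24 h. CLDN1 and TJP1 of the tight junction had -0.71 and -0.61. The keratins KRT7, KRT8 and KRT18, which mark simple epithelium such as A549, measured 1852, 1950 and 836 RPKM in control and 2049, 2357 and 1109 RPKM in CAF medium (0.15, 0.27 and 0.41). CDH1, E-cadherin, measured 6.63 and 8.63 RPKM (0.36). In the list of TGF-beta targets 1 of 19 members was past the lower line and none past the upper (median -0.35), and the ligand gene TGFB1 (chromosome 19) measured 54.4 and 99.96 RPKM (0.87). ID2 (chromosome 2), an inhibitor of differentiation factors in the BMP list, measured 11.4 and 5.22 RPKM (-1.06), and the ligand gene BMP4 (chromosome 14) of that list 5.18 and 11.9 RPKM (1.13).

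RNA processing genes were split. Of the 26 members of the splicing list, which holds SR proteins and their kinases, SRSF6 (chromosome 20; 48.2 RPKM in control and 18.6 RPKM in CAF medium, -1.35) and SRSF2 (chromosome 17; 41.4 and 19.8 RPKM, -1.05) were past the lower line. The helicase DDX5 measured 325 and 169 RPKM (-0.95). LUC7L3 and PNISR had 0.75 and 0.80. The list of nucleolar ribosome assembly had 26 of 35 members below 0 (median -0.23), with UTP20 (-1.12) and POLR1A (-1.02), the largest subunit of RNA polymerase I, past the lower line. Centred by length, both came under it (-0.97 and -0.88), which left none. Ribosomal protein genes, by contrast, had 58 of 80 members above 0 (median 0.17) and none past a line. Their gene models are short (median 1091 bases), their reads can be shared with many pseudogenes, and with length taken into account the median was 0.08.

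Markers of other cells were read beside these results. Of the 12 fibroblast genes listed, which bear on the source of the medium, 1 was a member, COL5A2 (57.2 RPKM in control and 50.5 in CAF medium). Of the 11 immune and endothelial markers 1 was a member, CD68 (20.5 and 19.1), a lysosomal protein not restricted to macrophages. Among the fibroblast genes under the floor COL1A1 measured 2.89 RPKM in control and 4.84 RPKM in CAF medium, THY1 0.15 and 0.92, FAP 2.50 and 2.36, and FBN1 3.01 and 2.21, and the other 7 measured at most 0.69 in either library. The summed level of the 12 was 67.2 RPKM in control and 61.8 RPKM in CAF medium. The other 10 immune and endothelial markers measured at most 0.77 RPKM, with PTPRC, which marks white blood cells, at 0.01 in either library. The part of other cells in the results was not tested. The lung epithelial lineage list held 12 genes, of which 9 were in the table and 2 were members. These were ABCA3 (5.40 RPKM in control and 4.92 in CAF medium) and FOXA2 (6.27 and 10.0). Under the floor FOXA1 measured 1.91 and 1.41 RPKM. The alveolar markers NKX2-1 and SFTPC, which lung epithelium of the distal airway holds, were listed at 0 RPKM in the control and at 0 and 0.18 RPKM in CAF medium. SFTPD went the other way, with 0.37 RPKM in control and 0 in CAF medium. SFTPB measured 0.01 and 0.04 RPKM, NAPSA 0.39 and 0.74, and GATA6 0.60 and 0.56.

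Most other lists had few members past a line. In the lysosome and autophagy list 19 of 27 members lay above 0 (median 0.25) and 1 was past the upper line, WIPI1 (chromosome 17), which acts in building autophagosomes, at 12.2 RPKM in control and 24.9 RPKM in CAF medium (1.01, or 0.90 centred by length). None of the members of the sterol and fatty acid (25), respiratory chain (47), heat shock (20), ER chaperone (24), integrin, laminin and collagen (24) and YAP (15) lists was past either line, and none of the 26 zinc finger genes of chromosome 19 was. Their medians were 0.11, 0.08, -0.07, -0.23, -0.11, -0.05 and 0.01. With length taken into account those of the integrin and YAP lists turned to 0.03 and 0.02 and that of the respiratory chain to -0.00, and rescaling without the 100 most abundant genes turned that of the zinc fingers to -0.01. Of the 15 members on the mitochondrial chromosome 4 were past the lower line, all models of short RNAs. DQ584698 (57 bases) measured 24.3 RPKM in control and 1.93 RPKM in CAF medium (-3.35), and DQ582201 7420 and 3111 RPKM (-1.25). Reads of such short models may come from repeated copies elsewhere in the genome.

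Differences at 12 h followed the length of the gene model. The median difference went from 0.17 in the shortest length decile to -0.15 in the longest, and the number of genes past the upper line from 36 to 6. Genes past the upper line had a median length of 2257 bases and those past the lower line 4024 bases, against 3259 bases for all. The rank correlation of difference and length across the 7613 genes was -0.24 at 12 h, 0.23 at 3 h, -0.13 at 6 and 24 h, 0.07 at 48 h and -0.07 at 72 h. These correlations are across genes, which are not independent replicates. When differences were centred within each length decile, 146 genes were past the upper and 83 past the lower line, of which 124 and 74 were among those counted above. The part of length in these results was not tested.

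**Figure D4:**
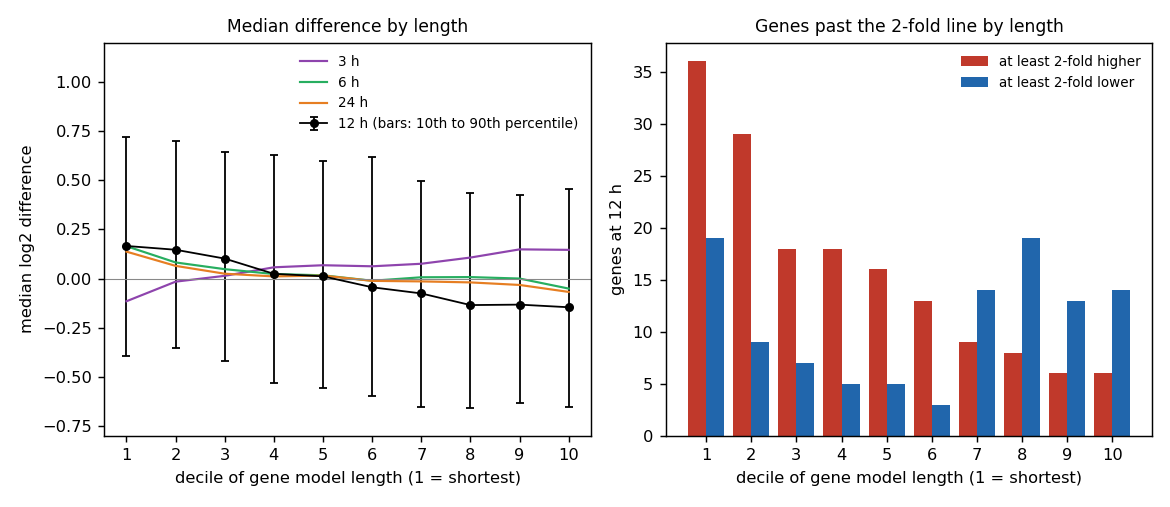
Left, the median log2 difference in each decile of gene model length at 12 h (black, bars from the 10th to the 90th percentile of genes) and at 3, 6 and 24 h (lines); right, the number of genes at least 2-fold higher (red) and lower (blue) at 12 h. The 12 h median goes from 0.17 to -0.15, and the higher genes go from 36 in the shortest decile to 6 in the longest.

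Over all members 2.09% were past the upper and 1.42% past the lower line. Chromosome 19, whose members had a median model length of 2484 bases, held 37 of the 159 higher genes and 5 of the 108 lower ones. These were 7.34% and 0.992% of the 504 members on chromosome 19. Its median difference was 0.25, and 0.22 after centring by length. Chromosome 17 held 23 higher (4.26%) and 5 lower genes (0.926%) among 540 members (median 0.09). Chromosome 4, with the CXCL cluster, held 1 higher (0.398%) and 11 lower (4.38%) among 251 members (median -0.13).

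The other times were used as context, each with its own control. At 6 h 1.46% of the 7758 genes with at least 5 RPKM there were at least 2-fold higher and 0.902% at least 2-fold lower, and at 24 h 2.15% and 0.785% of 8153. Of the 159 genes higher at 12 h, 156 had a positive difference at 6 h and 151 at 24 h, against 52.8% and 50.7% of all members. Their median difference was 0.43 at 3 h, 0.79 at 6 h, 1.18 at 12 h, 0.83 at 24 h, 0.29 at 48 h and 0.10 at 72 h. At 6 and 24 h 56 and 62 of them were 2-fold higher, 37 at both, and 71 passed the upper line at 12 h and at no other time. Since the 159 genes were chosen by their 12 h difference, the peak at 12 h follows in part from that choice.

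Of the 108 lower genes 20 were 2-fold lower at 6 h and 16 at 24 h, 9 of them at both. Of these genes 101 had a negative difference at 6 h and 95 at 24 h, against 47.1% and 49.2% of all members. Their medians were -0.19, -0.56, -1.12, -0.39, -0.30 and -0.19 at the 6 times. The lower line was passed by 68 of them at 12 h and at no other time, and 81 of the 108 (75%) had their lowest value of all 12 libraries in CAF medium at 12 h. These genes too were chosen by their 12 h difference, so the low medians and low values at 12 h follow in part from that choice. Differences larger at 12 h than at 6 and 24 h coincide with a CAF medium library that differed more from its neighbours than the control did. The part of that library in the result was not tested. Over genes with at least 5 RPKM, the SD of differences was 0.40, 0.47, 0.41 and 0.50 at 6, 12, 24 and 48 h. The spread was thus wider at 48 h than at 12 h, and 125 of all members were 2-fold higher and 274 were 2-fold lower at 48 h.

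**Figure D5:**
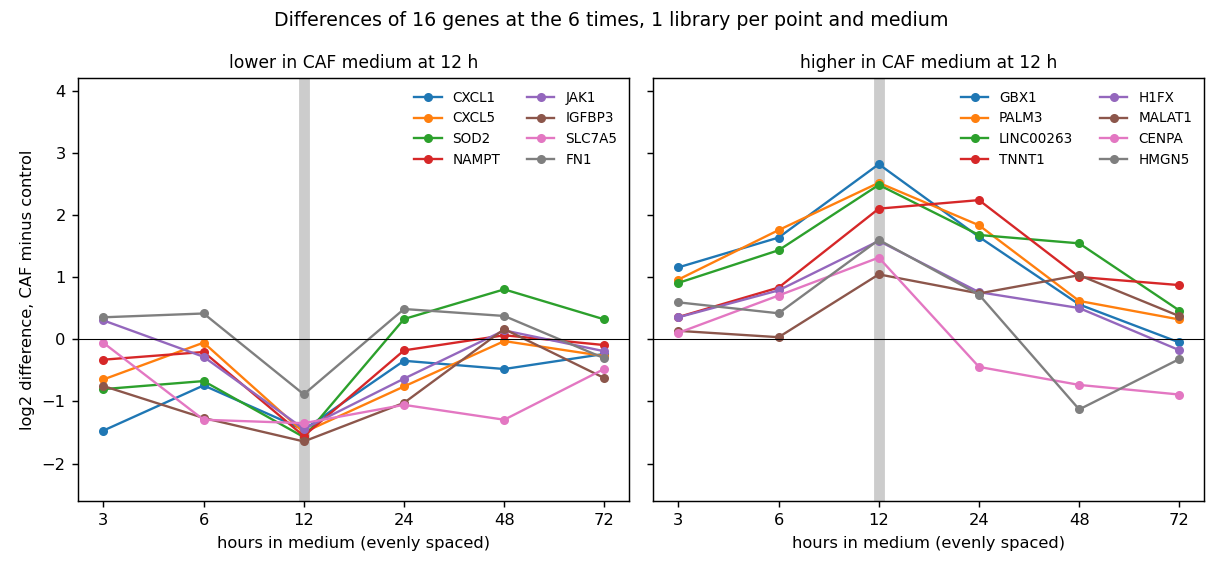
Log2 difference, CAF medium minus control, at the 6 times (evenly spaced) for 8 genes lower and 8 genes higher at 12 h (grey band); each point compares 1 library per medium. NAMPT, JAK1 and FN1 stand below their values at 6 and 24 h, SLC7A5 is below -1 from 6 to 48 h, and CENPA and HMGN5 are above 0 at 12 h and below 0 at 48 h.

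Some genes differed at 12 h in a way that neither neighbouring time showed. The size of this gap, the 12 h difference minus the mean of those at 6 and 24 h, was largest among longer nuclear genes for SYN2 (chromosome 3), a synaptic vesicle protein, at -1.73. Its values were 5.38 RPKM in control and 2.31 in CAF medium (-1.07, or -0.93 centred by length), against differences of 0.45 and 0.87 at 6 and 24 h. ROBO1 (chromosome 3), a guidance receptor, measured 19.1 and 11.9 RPKM at 12 h (-0.66), and 0.67 and 0.86 were its differences at 6 and 24 h. MMP7 (chromosome 11), matrilysin, measured 7.56 and 3.60 RPKM (-0.98) against differences of 0.65 and -0.06. LINC00669 (chromosome 18) measured 4.80 and 12.1 RPKM (1.25), with 0.01 and -0.52 at 6 and 24 h. SOD2, NAMPT, CP, TNFAIP3, SAA1 and FN1, described above, belonged to the same 20 genes.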

How the data were processed

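The deposited values are RPKM with 2 decimals, beside gene model lengths. The submitters' processing notes name TopHat2, edgeR and hg19 but no version. How reads were counted, whether strand was used, which annotation served and how replicates were joined is not given in the sources used here, so reads of overlapping, antisense and near-identical genes cannot be told apart. Medium and time came from the sample labels. Chromosomes are those of the deposited table.

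Reads were recovered from the value steps of gene models under 400 bases: 100% of the 68 to 110 values per library were whole within 0.1 read, giving 23.89 to 29.28 M reads in the 6 libraries up to 12 h and 33.92 to 40.58 M in the 6 later ones. Intervals are exact (Clopper-Pearson) binomial, for counting error only. Depth recovery and counts past the line were tested on simulated data. With 1 library per medium and time no test was run. Some genes that the rule for named genes takes are not reported here.

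The rule for named genes took the 20 largest differences in each direction among nuclear models of at least 400 bases, in each of 48 lists up to 4 members with the largest differences and every member past a 2-fold line, the 10 most abundant genes, up to 5 in each direction at 50 RPKM or more, and the 20 largest gaps to 6 and 24 h; list members under 2-fold outside it, and genes so marked, were added after their values were seen. Members, lists and rules were chosen with earlier results of these data known. Where RefSeq gave several starts for a symbol, the one lowest in coordinate was used. Alternatives were another pseudocount, floor or scaling and a stricter count. Python 3.11.15, pandas 2.3.3, numpy 2.4.6 and scipy 1.17.1 were used.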

Additional observations from a re-analysis of the deposited data

Results flagged for a closer look

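These genes were past a 2-fold line at 12 h and past the opposite line at another time. Each value rests on 1 library per medium, and the difference between the times was not tested. Among genes lower in CAF medium at 12 h, IL8 (-1.06 at 12 h) had a log2 difference of 1.58 at 48 h, with 102 RPKM in control and 305 RPKM in CAF medium there. VEGFA had 1.05 and HAS3, a hyaluronan synthase, 1.06 at 48 h. ADM had 1.04 at 48 h and 1.01 at 72 h. Of the short or unnamed models BC005927 had 1.85 at 48 h, SNORD104 1.34 at 24 h and DQ597485 1.84 at 72 h. Among genes higher at 12 h, CDC25C had -1.26 at 72 h, and at 48 h HMGN5, a nucleosome-binding protein, had -1.13, LINC00669 -1.39 and NRGN, neurogranin, -1.78.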

How the results depend on the processing

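No count and no named gene past a 2-fold line turned in direction under the alternatives run; of named genes under it, 3 changed sign with centring by length and 1 with quantile normalization. With at least 10 RPKM in either library 95 genes were higher; with at least 1 RPKM 403 were higher and 176 lower (median 0.012), and with no filter 452 and 198. The higher genes made up 59.6% of those past a line, 69.6% with at least 1 RPKM and 69.5% with no filter. With 5 RPKM required in both libraries, an alternative chosen after seeing the data, 77 and 67 were left. Requiring the counting interval to lie wholly past 2-fold left 69 lower genes. Rescaling without the 100 most abundant genes gave a median of -0.029. The other alternatives, pseudocounts of 0.1 and 1, median centring, quantile normalization, nuclear models of at least 400 bases and centring by length (also chosen after seeing the data), kept the counts within 1.5 times. Of 122 genes past a line that were followed singly 26 came under it with centring by length and 14 with a pseudocount of 1. No paired analysis was possible because there is 1 library per medium at 12 h, and leaving out a replicate was not possible for the same reason. Low genes limit the precision, since 82 higher and 41 lower genes reached 5 RPKM in 1 library only.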

Other observations

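Further genes past a 2-fold line were named after their values were seen, and no list or test stands behind their grouping. Several genes known from neurons were past the upper line, while the synaptic gene SYN2 was past the lower (-1.07) and the guidance receptor gene ROBO1 had -0.66. SYT1 (chromosome 12), the calcium sensor of synaptic vesicles, measured 3.46 RPKM in control and 9.09 RPKM in CAF medium (log2 difference 1.28). DLG4 (chromosome 17), the scaffold PSD-95, measured 4.35 and 9.84 RPKM (1.09), LPHN1 (chromosome 19), the adhesion receptor latrophilin, 1.93 and 5.66 RPKM (1.34), CALB2 (chromosome 16), calretinin, 2.08 and 5.57 RPKM (1.23), and REEP2 (chromosome 5), which shapes the endoplasmic reticulum, 3.29 and 8.57 RPKM (1.26). At 6 h the differences of SYT1, DLG4, LPHN1, CALB2 and REEP2 were 0.87, 1.05, 0.84, 0.07 and 0.59. APOE (chromosome 19), the lipid carrier, measured 1.45 and 5.50 RPKM (1.62) and was also higher by more than 1 on this scale at 24, 48 and 72 h. CD70 (chromosome 19), a ligand of the tumour necrosis factor family, measured 6.00 and 16.8 RPKM (1.41), opposite to TNFSF14.

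Some genes that act in translation or RNA granules were past the lower line at 12 h, again chosen for their values. The fixed lists differ from them: 58 of 80 ribosomal protein genes lay above 0 with none past a line, and 1 of 19 aminoacyl-tRNA synthetase genes was past the lower line. EIF4G2 (chromosome 11), an initiation factor, measured 219 RPKM in control and 95.2 RPKM in CAF medium (-1.20). CAPRIN1 (chromosome 11) and G3BP2 (chromosome 4), partners in stress granules, had -1.15 and -1.10, the helicase DDX3X (chromosome X) -1.06, and ABCE1 (chromosome 4), which recycles ribosomes, -1.06. Centred by length, G3BP2, DDX3X and ABCE1 had -0.97, -0.93 and -0.99. For CAPRIN1, G3BP2 and DDX3X the differences at 6 h were -0.31, -0.25 and -0.37 and at 24 h -0.39, -0.25 and -0.30. Their gene models of 4551 to 7130 bases are longer than the median of 3259 bases, and the part of length was not tested.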
